A study of Mus musculus with 6 samples.

Results

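The T cell receptor recognises antigen but has no signalling domain of its own. It is carried to the T cell surface and connected to the inside of the cell by the CD3 gamma, delta and epsilon chains and the zeta chain (Cd247). When the receptor is engaged, the kinase Lck phosphorylates motifs in the tails of these chains, the kinase Zap70 docks on them, and Zap70 phosphorylates the membrane adaptor Lat, on which the downstream signalling proteins gather. Cd2 is an adhesion and costimulatory receptor of T and NK cells, and Cd5 is a surface glycoprotein that dampens receptor signalling. In the lung these genes mark resident and circulating T cells, and in the thymus they mark developing thymocytes.

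The members were all probe sets of the array annotated with the single symbol Cd3e, Cd3d, Cd3g, Cd247, Lck, Zap70, Lat, Cd2 or Cd5. They came to 13 probe sets of 8 genes, out of 45037 probe sets in all, and no probe set was found for Lck under this rule, so that Lck is not analysed here. Of the 13 probe sets 10 passed a filter on low signal and were tested, and the other 3, all of Cd247, did not.

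Lungs of adult F1 females were snap frozen, and their total RNA was hybridised to Affymetrix expression arrays. The AKR_F1 group held 3 arrays of (AKR/J x FVB/NJ)F1 mice and the DBA_F1 group 3 arrays of (DBA/2J x FVB/NJ)F1 mice, so that both groups carried FVB/NJ chromosomes and differed in the inbred strain of the other parent. The labels name no treatment other than Avertin anaesthesia before death, nor is it stated that the 3 arrays of a group stand for 3 different mice, so the spread behind the p-values may be technical. All values are log2 signals as deposited, and all differences are AKR_F1 minus DBA_F1. Because RNA came from whole lung, more T cells and more RNA of a gene per T cell cannot be told apart. Nor can RNA of thymocytes or of other cells that carry these genes, such as NK cells for Cd2.

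AKR_F1 replicate 3 stood apart within its group. It correlated at 0.975 and 0.976 with AKR_F1 replicates 1 and 2, which correlated at 0.995 with each other, and at 0.984 to 0.986 with the DBA_F1 arrays. The surfactant gene Sftpc, a marker of the alveolar epithelium, had 14.31, 14.34 and 14.31 in AKR_F1 and 14.34, 14.30 and 14.26 in DBA_F1 (values are listed here and below in the order of the replicate numbers, 1 to 3), so that each array carried lung signal. The members' differences are given below with and without AKR_F1 replicate 3.

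The 4 chains that form the CD3 complex are encoded at 2 places in the genome. Cd3g, Cd3d and Cd3e are neighbours on chromosome 9, and Cd247 lies on chromosome 1. By brightest probe set, all 4 were highest on AKR_F1 replicate 3. Whether they moved together over the other arrays was not tested. The 250 bases before one RefSeq transcription start of each are shown (RefSeq, GRCm38.p6, 5′ to 3′ on the strand of the gene). Capitals mark matches, on either strand, to GGAAGT (the core bound by ETS factors, which reads ACTTCC on the other strand), to CAGGTG (an E box, CACCTG on the other strand) and to TGTGGT (a RUNX core, ACCACA on the other strand).
Cd3g, chr9:44980432-44980681, minus strand: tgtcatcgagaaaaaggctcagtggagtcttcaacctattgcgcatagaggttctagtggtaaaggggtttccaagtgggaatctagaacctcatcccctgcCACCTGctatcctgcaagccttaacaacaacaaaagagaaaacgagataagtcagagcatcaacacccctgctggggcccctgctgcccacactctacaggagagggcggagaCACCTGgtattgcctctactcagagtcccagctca
Cd3d, chr9:44981536-44981785, plus strand: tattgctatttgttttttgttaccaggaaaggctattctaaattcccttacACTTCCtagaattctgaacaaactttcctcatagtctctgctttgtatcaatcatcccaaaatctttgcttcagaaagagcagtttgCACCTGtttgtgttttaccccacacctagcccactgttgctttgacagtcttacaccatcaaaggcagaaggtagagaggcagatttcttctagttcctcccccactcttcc
Cd3e, chr9:45009612-45009861, minus strand: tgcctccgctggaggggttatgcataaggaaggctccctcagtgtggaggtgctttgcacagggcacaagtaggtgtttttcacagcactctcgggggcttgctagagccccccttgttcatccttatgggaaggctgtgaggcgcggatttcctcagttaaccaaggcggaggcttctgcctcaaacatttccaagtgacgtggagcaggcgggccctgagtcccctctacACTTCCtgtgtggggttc
Cd247, chr1:165788431-165788680, plus strand: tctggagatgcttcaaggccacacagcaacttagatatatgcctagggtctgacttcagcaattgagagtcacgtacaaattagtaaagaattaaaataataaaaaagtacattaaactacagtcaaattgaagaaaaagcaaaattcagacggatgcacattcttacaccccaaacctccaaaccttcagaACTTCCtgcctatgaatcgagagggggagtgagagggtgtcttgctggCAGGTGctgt
The ETS letters stood once each before Cd3d, Cd3e and Cd247. The E box letters stood 2 times before Cd3g and once each before Cd3d and Cd247, and the RUNX letters stood before none of these 4 starts. No match overlapped another in them. Windows were found for 8 of the 9 genes, 11 windows in all, since Zap70 and Lck have more than 1 start, and Cd2 had none. The ETS letters were in 7 of the 11 windows, against 19.7% of 32851 mouse windows of this length. The E box letters were also in 7 of the 11, against 17.2%, and the RUNX letters in 2, against 14.0%. The motifs were chosen after the sequences had been seen, several windows share a gene, and a match is a description of letters only.

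Among the CD3 chains, by brightest probe set, signals were highest on AKR_F1 replicate 3 for all 4 genes. AKR_F1 replicates 1 and 2 overlapped the DBA_F1 arrays in Cd3e and Cd3d and lay above them in Cd3g and Cd247. CD3 epsilon (Cd3e) is the chain that pairs with both the gamma and the delta chain. It had a signal of 8.10, 8.03 and 8.56 in AKR_F1 and of 7.96, 8.06 and 8.0 in DBA_F1. The groups overlapped, because AKR_F1 replicate 2 lay below DBA_F1 replicate 2. The difference was 0.22 ± 0.14 (SE, n = 3 per group, 95% interval -0.10 to 0.54, limma adjusted p = 0.44). Without AKR_F1 replicate 3 the difference of Cd3e was 0.053 (limma adjusted p = 0.72).

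CD3 delta (Cd3d), which forms one of the heterodimers with epsilon, had 8.17, 8.18 and 8.98 in AKR_F1 and 8.03, 8.20 and 8.20 in DBA_F1. Only the third AKR_F1 array of Cd3d exceeded the DBA_F1 arrays, by 0.84 over their mean. The difference of Cd3d was 0.30 ± 0.21 (SE, 95% interval -0.20 to 0.80, limma adjusted p = 0.50). Without that array it was 0.033 (adjusted p = 0.86).

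CD3 gamma (Cd3g), which forms the other heterodimer, had 7.53, 7.53 and 8.29 in AKR_F1 and 7.26, 7.29 and 7.37 in DBA_F1. Here the groups did not overlap, and AKR_F1 replicates 1 and 2 also lay above every DBA_F1 array. The difference of Cd3g was 0.48 ± 0.20, or 1.39-fold (95% interval 0.006 to 0.94, unadjusted p = 0.048, limma adjusted p = 0.27). Without AKR_F1 replicate 3 it was 0.22 (adjusted p = 0.15).

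The zeta chain (Cd247), which carries most of the phosphorylation motifs of the complex, had the largest difference of the 8 genes. Its brightest probe set, 1426396_at, had 6.14, 6.14 and 6.88 in AKR_F1 and 5.88, 5.85 and 5.59 in DBA_F1, with no overlap between the groups. The difference was 0.62 ± 0.21, or 1.53-fold (SE, 95% interval 0.13 to 1.11, unadjusted p = 0.021, limma adjusted p = 0.19). Without AKR_F1 replicate 3 the difference of Cd247 was 0.37 (adjusted p = 0.14).

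The 3 other probe sets of Cd247 had means below the filter level of 4.72 over all arrays and were not tested. Probe set 1452539_a_at repeated the order of the brightest one, with 4.19, 4.16 and 4.90 in AKR_F1 and 3.99, 4.08 and 3.84 in DBA_F1. Probe set 1420716_at had 3.40, 3.43 and 3.42 in AKR_F1 and 3.22, 3.37 and 3.21 in DBA_F1, so that AKR_F1 replicate 3 did not stand out in it. Probe set 1426079_at, the dimmest, had 2.75, 2.80 and 2.80 in AKR_F1 and 2.82, 2.91 and 2.83 in DBA_F1, the opposite order.

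**Figure D1:**
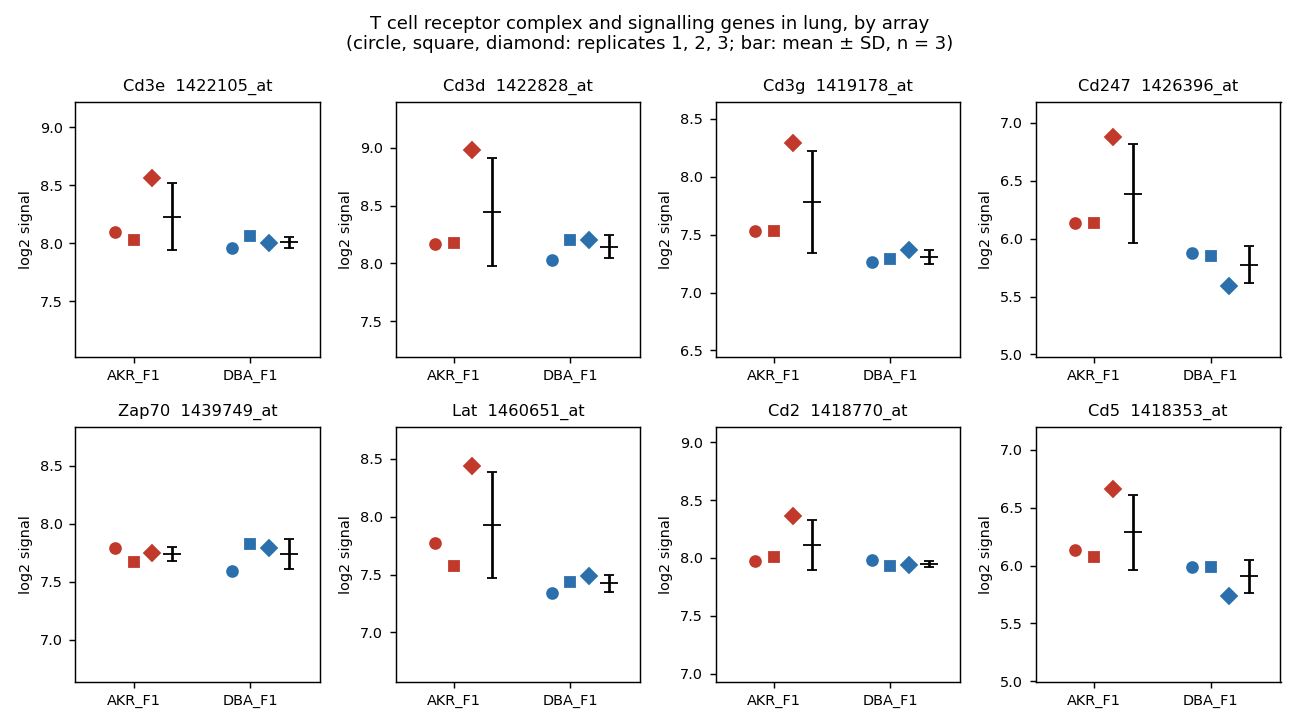
Log2 signal (vertical axes, each spanning the same number of log2 units) of the brightest probe set of each of the 8 genes, with AKR_F1 arrays in red and DBA_F1 arrays in blue; bars give mean ± SD, n = 3. AKR_F1 replicate 3 (red diamond) is the highest array in 7 of the 8 genes, the exception being Zap70, and the SD in AKR_F1 exceeds that in DBA_F1 in the same number of genes.

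For the kinase Zap70 the answer depended on the probe set. The brightest, 1439749_at, for which the platform table lists no accession, had 7.79, 7.67 and 7.75 in AKR_F1 and 7.59, 7.83 and 7.79 in DBA_F1. Its groups overlapped fully, with a difference of 0.001 ± 0.077 (SE, 95% interval -0.18 to 0.18, limma adjusted p = 0.997). The second, 1422701_at, followed the CD3 chains, with 6.56, 6.63 and 6.90 in AKR_F1 and 6.50, 6.51 and 6.43 in DBA_F1. Its groups did not overlap, and its difference was 0.22 ± 0.099 (95% interval -0.011 to 0.46, limma adjusted p = 0.29). The third, 1440178_x_at, had 5.57, 5.63 and 5.66 in AKR_F1 and 5.47, 5.46 and 5.59 in DBA_F1, with a difference of 0.11 ± 0.074 (adjusted p = 0.50). Without AKR_F1 replicate 3 the Zap70 differences were -0.005 (limma adjusted p = 0.98) for 1439749_at, 0.12 (0.45) for 1422701_at and 0.087 (0.66) for 1440178_x_at.

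The adaptor Lat had 7.77, 7.57 and 8.44 in AKR_F1 and 7.34, 7.44 and 7.49 in DBA_F1. Each AKR_F1 array lay above each DBA_F1 array, though AKR_F1 replicate 2 did so by a small margin. The difference of Lat was 0.50 ± 0.21, or 1.42-fold (SE, 95% interval 0.015 to 0.99, unadjusted p = 0.045, limma adjusted p = 0.26). It was 0.25 without AKR_F1 replicate 3 (adjusted p = 0.19).

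Of the surface receptors, Cd2 differed less than Cd5. Cd2 had 7.97, 8.01 and 8.36 in AKR_F1 and 7.98, 7.93 and 7.94 in DBA_F1, so that AKR_F1 replicate 1 lay within the DBA_F1 range. The difference of Cd2 was 0.16 ± 0.10 (SE, 95% interval -0.083 to 0.41, limma adjusted p = 0.45), and 0.040 without AKR_F1 replicate 3 (adjusted p = 0.77). Cd5 had 6.13, 6.07 and 6.66 in AKR_F1 and 5.99, 5.99 and 5.74 in DBA_F1, with no overlap. The difference of Cd5 was 0.38 ± 0.17 (95% interval -0.011 to 0.77, limma adjusted p = 0.28), and 0.19 without AKR_F1 replicate 3 (adjusted p = 0.38).

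Counted together, 0 of the 10 tested probe sets were called at a limma adjusted p under 0.05, against 2.62% of all 27022 tested probe sets. Without AKR_F1 replicate 3 it was again 0 of 10, against 4.33% of all tested probe sets. At an unadjusted p under 0.05 there were 3, those of Cd3g, Cd247 and Lat, against 18.4% of all tested probe sets. By brightest probe set, all 8 genes had a positive difference, with a median of 0.34 against 0.015 over all 13202 tested genes. The difference of Zap70 was 0.001, and it was negative with quantile normalization (-0.017), median centring (-0.0008), array weights (-0.020) and without AKR_F1 replicate 1 (-0.024), AKR_F1 replicate 3 (-0.005) or DBA_F1 replicate 1 (-0.071). Without AKR_F1 replicate 3 the difference was positive in 7 of the 8 genes, with a median of 0.124. At an unadjusted p under 0.05 there were then again 3 probe sets, of Cd3g, Cd247 and Lat, against 19.5% of all tested probe sets. In 4 of the 8 genes, Cd3g, Cd247, Lat and Cd5, every AKR_F1 array lay above every DBA_F1 array, against 14.2% of all tested genes. The 95% intervals of the 10 probe sets reached from -0.20 to 1.11, so differences of up to 1 log2 unit toward AKR_F1 in Cd247 lay within what these 6 arrays allow.

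**Figure D2:**
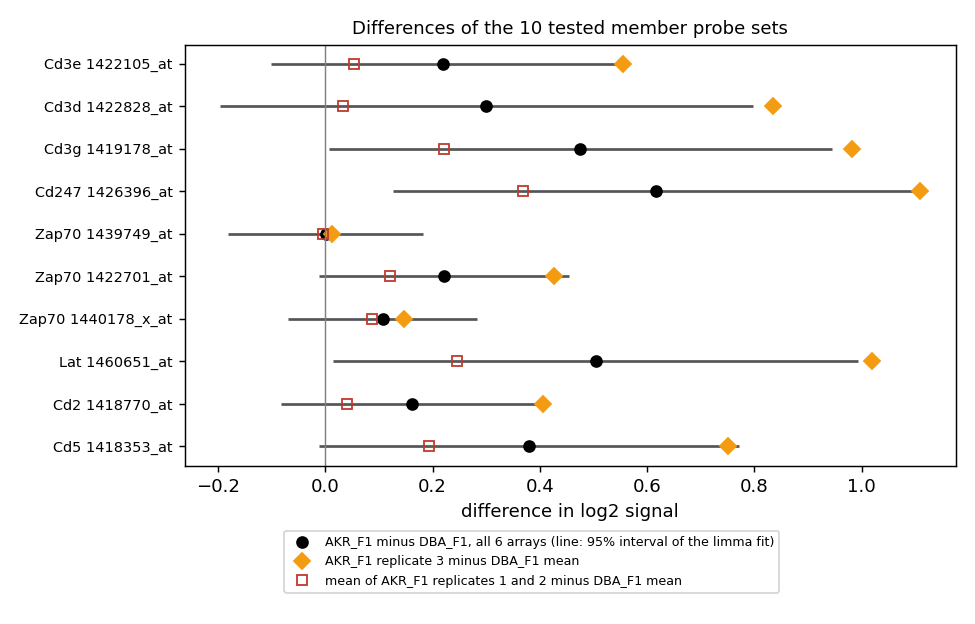
Difference in log2 signal (horizontal axis) for the 10 tested member probe sets (rows), as AKR_F1 minus DBA_F1 with its 95% interval (black), for AKR_F1 replicate 3 alone (orange) and for the mean of AKR_F1 replicates 1 and 2 (open red squares), each against the DBA_F1 mean. The orange diamonds lie to the right of the open squares in all 10 rows, and for Cd3e, Cd3d, Cd3g, Lat and Cd247, at 0.555 to 1.11, they lie past the upper end of the interval.

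The spread between arrays was wider in AKR_F1 than in DBA_F1 for 7 of the 8 genes. Among the 8 genes the SD ranged from 0.056 to 0.46 in AKR_F1 (median 0.38) and from 0.025 to 0.16 in DBA_F1 (median 0.086). Over all tested genes the median SD was 0.080 in AKR_F1 and 0.088 in DBA_F1. AKR_F1 replicate 3 was the highest of the 6 arrays for 7 of the 8 genes, against 13.6% of all tested genes. It exceeded the mean of AKR_F1 replicates 1 and 2 by a median of 0.65 over the 8 genes, from 0.019 in Zap70 to 0.80 in Cd3d. Over all tested genes this median was -0.027.

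The mean over the 8 genes was 7.45, 7.40 and 7.99 in AKR_F1 and 7.25, 7.32 and 7.26 in DBA_F1. Its difference of 0.33 became 0.14 without AKR_F1 replicate 3. AKR_F1 replicates 1 and 2 still exceeded all DBA_F1 arrays in this mean. Gene by gene, both of these arrays lay above all DBA_F1 arrays in 4 of the 8 genes, against 23.9% of all tested genes.

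Transcripts of the receptor chains themselves were measured by 17 probe sets annotated with a single receptor segment symbol, which were looked up after the values had been seen. Of these, 6 were tested and 0 called by limma, against 2.62% of all tested probe sets. At an unadjusted p under 0.05 there were 4, against 18.4% of all tested probe sets. AKR_F1 replicate 3 was the highest array in all 6, against 13.9% of all tested probe sets. The beta chain probe set 1452205_x_at, annotated Trbv1, had 8.75, 8.51 and 9.81 in AKR_F1 and 8.24, 8.30 and 8.34 in DBA_F1. Its difference was 0.73 ± 0.31 (SE, n = 3 per group, limma adjusted p = 0.27). The 3 tested probe sets annotated Trav9d-3, of the alpha chain, differed by 0.34, 0.44 and 0.36, with adjusted p of 0.21, 0.22 and 0.31. Of the gamma chain, 1450521_a_at, annotated Trgv4, differed by 0.366 (adjusted p = 0.215). The other tested one, 1427608_a_at, annotated Trgv1, differed by only 0.03 (adjusted p = 0.956), and its groups overlapped. Segments of one family share sequence, so which segment such a probe set reads is uncertain.

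The coreceptors CD8 and CD4 bring Lck to the receptor. Cd8a, the alpha chain of CD8, had 6.43, 5.70 and 7.90 in AKR_F1 and 5.38, 5.67 and 5.27 in DBA_F1. The difference of Cd8a was 1.24 ± 0.50 (SE, n = 3 per group, limma adjusted p = 0.25). Its partner Cd8b1 had 6.70, 6.24 and 8.30 in AKR_F1 and 5.92, 6.04 and 5.82 in DBA_F1, with a difference of 1.15 ± 0.48 (adjusted p = 0.26). In both CD8 genes AKR_F1 replicate 3 was far above the rest and AKR_F1 replicate 1 next. Cd4 had 6.76, 6.42 and 6.98 in AKR_F1 and 6.34, 6.52 and 6.27 in DBA_F1, with overlap and a difference of 0.34 ± 0.15 (adjusted p = 0.27). Whether the differences of the CD8 genes and of the CD3 chains differ from each other was not tested.

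Of 52 further symbols of the receptor pathway 41 had a probe set and 38 were tested. In the limma fit 2 were called, against 2.48% of all tested genes. Both were higher in AKR_F1 (1.42% of all tested genes) and 0 were lower (1.06%). These were Fyn and Grb2, which are expressed in many cell types besides T cells. Fyn, a Src family kinase that acts beside Lck, had 9.14, 9.11 and 9.12 in AKR_F1 and 8.75, 8.70 and 8.74 in DBA_F1. It rose by 0.39 ± 0.044 (SE, n = 3 per group, adjusted p = 0.0078), and its second tested probe set differed by 0.19 (adjusted p = 0.21). Grb2, the adaptor that links Lat to Ras activation, had 9.04, 9.25 and 9.17 in AKR_F1 and 8.70, 8.49 and 8.54 in DBA_F1. It rose by 0.57 ± 0.079 (adjusted p = 0.016), with 0.58 (adjusted p = 0.031) in its second probe set. On AKR_F1 replicate 3 neither gene stood far from the mean of AKR_F1 replicates 1 and 2, from which that array differed by -0.005 in Fyn and 0.031 in Grb2. Fyn was not called without AKR_F1 replicate 1 (adjusted p = 0.055). Grb2 was not called without AKR_F1 replicate 2 (0.074), without DBA_F1 replicate 2 (0.070) or with the replicate block (0.052).

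The other 36 tested pathway genes did not pass. The median difference of the 38 was 0.135, against 0.015 over all tested genes, and 33 had a positive difference, against 55.1% of all tested genes. AKR_F1 replicate 3 was the highest array in 25 of the 38, against 13.6% of all tested genes. Themis, which sets the strength of receptor signals in thymocytes, had 5.76, 5.65 and 6.94 in AKR_F1 and 5.52, 5.43 and 5.43 in DBA_F1 (difference 0.66 ± 0.32, adjusted p = 0.33). Lcp2, the adaptor SLP-76 that joins Lat, had 7.67, 7.64 and 8.03 in AKR_F1 and 7.52, 7.30 and 7.46 in DBA_F1 (0.35 ± 0.12, adjusted p = 0.19). The phosphatase Ptprc (CD45), which all leukocytes carry, had 10.88, 11.03 and 11.31 in AKR_F1 and 10.93, 10.73 and 10.92 in DBA_F1 (0.22 ± 0.11, adjusted p = 0.36).

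Among 35 T cell lineage and homing markers 33 had a probe set and 29 were tested, with 1 called in the limma fit, Gimap5, against 2.48% of all tested genes, and a median difference of 0.13. Gimap5, a GTPase needed for the survival of T cells, had 7.37, 7.23 and 7.17 in AKR_F1 and 6.80, 6.82 and 6.87 in DBA_F1. It rose by 0.43 ± 0.072 (SE, n = 3 per group, adjusted p = 0.032), but 5 of the 6 fits that left out 1 array did not call it, with adjusted p of 0.055 to 0.13 (the exception left out AKR_F1 replicate 3). It was not called with the replicate block either (0.075). Thy1, a surface protein of thymocytes and T cells, had 7.35, 7.13 and 8.28 in AKR_F1 and 7.26, 7.40 and 7.25 in DBA_F1 (0.28 ± 0.27, adjusted p = 0.64). Apart from AKR_F1 replicate 3 its groups lay in the same range. Il7r, the receptor for a cytokine that keeps naive and memory T cells alive, had 8.01, 8.19 and 8.75 in AKR_F1 and 8.08, 8.48 and 8.47 in DBA_F1 (-0.03 ± 0.20, adjusted p = 0.96). S1pr1, which lets T cells leave lymphoid organs, had 9.66, 9.68 and 9.87 in AKR_F1 and 9.48, 9.91 and 9.91 in DBA_F1 (-0.03 ± 0.12, adjusted p = 0.93).

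Some genes of immature thymocytes and of thymus stroma were also highest on AKR_F1 replicate 3, in 7 of the 14 tested genes of that list, against 13.6% of all tested genes. Rag1, which with Rag2 rearranges receptor genes in developing lymphocytes, had 6.51, 3.08 and 8.55 in AKR_F1 and 3.0, 2.84 and 2.90 in DBA_F1. It was not tested, since its mean over all arrays lay under the filter level. Dntt, the polymerase that adds bases at the joins, had 5.86, 4.79 and 7.83 in AKR_F1 and 4.38, 4.58 and 4.59 in DBA_F1 (1.64 ± 0.67, SE, limma adjusted p = 0.26). Both genes were thus high on AKR_F1 replicates 3 and 1 and low on AKR_F1 replicate 2.

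The chemokine Ccl25, made by thymus epithelium, had 5.19, 5.27 and 7.93 in AKR_F1 and 5.15, 5.02 and 4.98 in DBA_F1 (1.08 ± 0.68, adjusted p = 0.45). The cortical epithelial protease Prss16, also under the filter, had 4.27, 4.27 and 6.93 in AKR_F1 and 4.04, 4.03 and 4.35 in DBA_F1. These stroma genes were raised on AKR_F1 replicate 3 alone. Aire and Dll4 were not raised there above the DBA_F1 range. Aire, a regulator of medullary thymus epithelium, had 5.2, 5.11 and 5.35 in AKR_F1 and 5.35, 5.17 and 5.42 in DBA_F1. The Notch ligand Dll4 had 8.91, 8.73 and 8.36 in AKR_F1 and 8.78, 8.31 and 8.59 in DBA_F1. Both overlapped between the groups. Foxn1 and Ptcra lay below the filter level of 4.72 on every array. Foxn1 had 4.46, 3.95 and 4.23 in AKR_F1 and 4.05, 4.21 and 4.07 in DBA_F1, and Ptcra had 3.97, 3.88 and 4.04 in AKR_F1 and 3.79, 3.62 and 3.73 in DBA_F1. Ptcra was thus highest on AKR_F1 replicate 3 by a small margin, and its groups did not overlap.

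Over the 22 thymocyte and thymus stroma genes found, of 24 listed, Cd8b1 and Themis among them, the list mean was 6.06, 5.68 and 6.83 in AKR_F1 and 5.71, 5.65 and 5.68 in DBA_F1. Of the 14 tested 0 were called by limma, against 2.48% of all tested genes. An unadjusted p under 0.05 was found for 3, against 18.4% of all tested probe sets. The median difference of the 14 was 0.068, against 0.015 over all tested genes, so the list mean was carried by part of the list. The part of these transcripts in the signal of the members was not tested. In AKR_F1 replicate 2, where Rag1 and Dntt were near their DBA_F1 levels, the mean of the 8 members exceeded the DBA_F1 mean by 0.12. In that array alone, the members' differences from the DBA_F1 mean ran from -0.061 in Zap70 to 0.37 in Cd247.

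**Figure D3:**
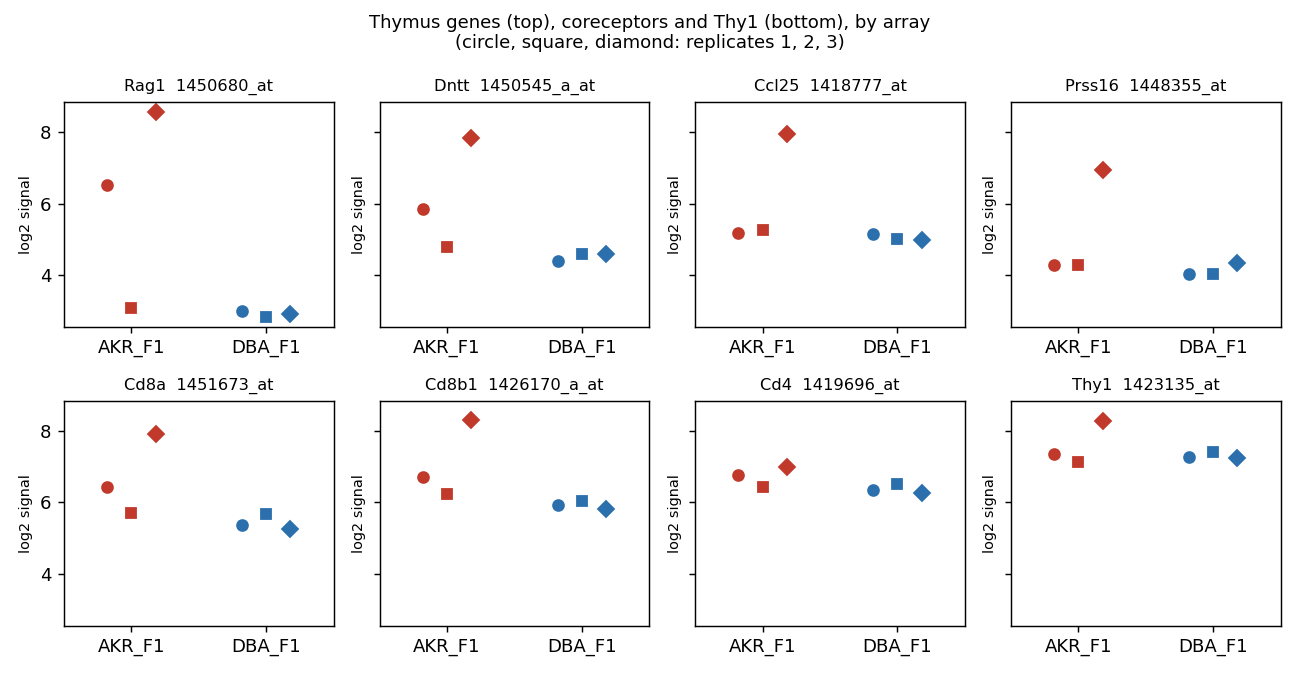
Log2 signal (vertical axes, shared) of 4 thymus genes (top row) and of the coreceptors and Thy1 (bottom row), with AKR_F1 arrays in red and DBA_F1 arrays in blue, 1 point per array. AKR_F1 replicate 3 (diamond) is highest in all 8 panels, and AKR_F1 replicate 1 (circle) is raised in Rag1, at 6.51, and in Dntt, at 5.86. Ccl25 and Prss16 were picked after their values were seen, and thymus genes not raised on that replicate 3, such as Aire and Dll4, are not shown. In the whole thymus list AKR_F1 replicate 3 is the highest array in 7 of the 14 tested genes.

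Squamous epithelium and skeletal muscle genes also set AKR_F1 replicate 3 far apart from the other AKR_F1 arrays and much nearer to DBA_F1. The mean of the 11 squamous genes found was 5.05, 5.02 and 9.56 in AKR_F1 and 9.25, 9.79 and 9.11 in DBA_F1. The mean of the 11 skeletal muscle genes was 5.51, 4.99 and 9.14 in AKR_F1 and 8.49, 8.97 and 8.53 in DBA_F1. On AKR_F1 replicate 3 the squamous mean thus lay within the DBA_F1 range and the muscle mean above it. Adipocyte genes did not follow. The mean of the 9 found was 7.55, 6.76 and 6.64 in AKR_F1 and 8.78, 9.32 and 8.28 in DBA_F1, with AKR_F1 replicate 3 the lowest array. AKR_F1 replicate 3 was the highest array in 8 of the 9 tested muscle genes and in 1 of the 11 squamous genes. Over all tested genes this share was 13.6%.

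Other leukocyte lists showed smaller shifts on AKR_F1 replicate 3 than the members. It was the highest array in 14 of 15 pan-leukocyte genes, 13 of 18 B cell markers and 4 of 13 tested NK cell markers. Over all tested genes this share was 13.6%. All 15 pan-leukocyte genes also had a positive difference, against 55.1% of all tested genes. For the counts that follow, 2.48% of all tested genes were called by limma, and 18.4% of all tested probe sets had an unadjusted p under 0.05. The mean of 15 pan-leukocyte genes was 9.37, 9.46 and 9.69 in AKR_F1 and 9.41, 9.26 and 9.34 in DBA_F1, with 0 of 15 called by limma (2 at an unadjusted p under 0.05). The mean of 18 B cell markers was 7.05, 7.37 and 7.56 in AKR_F1 and 7.39, 7.29 and 7.12 in DBA_F1, with 0 called (2 unadjusted). The B cell surface protein Ms4a1 (CD20) had 7.97, 8.51 and 8.76 in AKR_F1 and 8.51, 8.20 and 8.05 in DBA_F1 (0.15 ± 0.21, adjusted p = 0.74). The mean of 15 NK cell markers was 6.49, 6.80 and 6.77 in AKR_F1 and 6.79, 6.64 and 6.70 in DBA_F1, with 0 of 13 tested called (2 unadjusted). The NK receptor Ncr1 had 7.04, 7.62 and 7.18 in AKR_F1 and 7.77, 7.46 and 7.32 in DBA_F1 (-0.23 ± 0.17, adjusted p = 0.52).

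The median shift of AKR_F1 replicate 3 over AKR_F1 replicates 1 and 2 was 0.65 for the members. For B cell markers it was 0.39, for pan-leukocyte genes 0.31 and for NK cell markers 0.082. For the tested thymocyte and thymus stroma genes it was 0.42. The other receptor pathway genes, at 0.29, and the T cell lineage list, at 0.24, lay below the B cell and pan-leukocyte lists. Set against the pan-leukocyte mean of the same array, the mean of the members was at -1.92, -2.06 and -1.70 in AKR_F1 and at -2.16, -1.94 and -2.07 in DBA_F1. On this scale AKR_F1 replicate 3 was still the highest array, but AKR_F1 replicate 2 lay among the DBA_F1 arrays. The group difference was 0.16. Set against the B cell mean, the members were at 0.40, 0.03 and 0.43 in AKR_F1 and at -0.13, 0.04 and 0.14 in DBA_F1. There AKR_F1 replicate 3 was close to AKR_F1 replicate 1, AKR_F1 replicate 2 again lay among the DBA_F1 arrays, and the group difference was 0.27. Alveolar macrophage markers, of which 2 of 13 tested were called higher in AKR_F1 against 1.42% of all tested genes, had a median shift of -0.005 on AKR_F1 replicate 3.

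**Figure D4:**
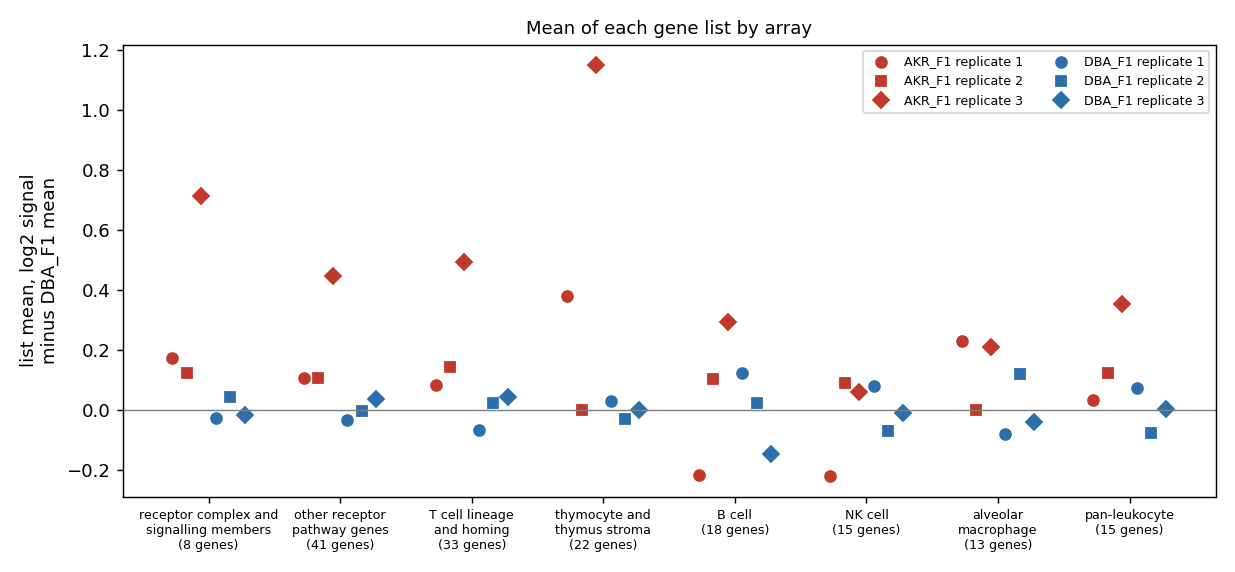
Mean log2 signal of each gene list on each array minus the mean of the DBA_F1 arrays (vertical axis), with AKR_F1 arrays in red and DBA_F1 arrays in blue. AKR_F1 replicate 3 (red diamond) is the highest array for every list plotted here except those of NK cells and alveolar macrophages. Its widest gap is in the thymocyte list. There it is at 6.83 before this subtraction, and the DBA_F1 arrays lie between 5.65 and 5.71. Gene by gene in that list, its difference from the DBA_F1 mean runs from -0.28 in Cd1d1 to 5.63 in Rag1.

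Genes were also ranked by the Pearson correlation of their signal with the mean of the 8 members over the 6 arrays, as a description that rests largely on AKR_F1 replicate 3. Of 13194 tested genes that are no members, the 10 most alike had r from 0.984 to 0.997. They included Cd8b1 (0.993), the T cell transcription factor Bcl11b (0.993), Trbv1 (0.993), Themis (0.991) and the kinase Tec (0.991). The other 5 were Rsf1 (0.997), Rrp15 (0.991), Fzd10 (0.988), Hscb (0.985) and Max (0.984), which have no role particular to T cells and whose differences were small, such as 0.16 in Rsf1. Bcl11b had 7.07, 6.87 and 7.86 in AKR_F1 and 6.74, 6.89 and 6.79 in DBA_F1 (0.46 ± 0.24, limma adjusted p = 0.35). Among the 100 most alike genes were 7 of the receptor pathway list, 7 of the T cell lineage list and 5 of the thymus list, which share genes, against 0 of the B cell list and 0 of the NK cell list.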

How the data were processed

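The deposited table holds 1 log2 value per probe set and array, made by the authors. Per the submitters' processing notes MAS5 and RMA were used, with neither version nor role given; the genome build is not given in the sources used here. The log2 scale was read from the values: array medians lay between 5.46 and 5.49 and the largest value was 14.56. No centring per gene was seen, and detection calls were not used.

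From these values, 64 control probe sets were removed and the lowest 40% by mean over all 6 arrays (4.72 or less) left untested. The platform annotation gave 34945 probe sets 1 symbol, 932 several and 9160 none. Groups were compared with limma 3.58.1 in R 4.3.3 (lmFit, eBayes with a trend, two-sided), with Benjamini-Hochberg adjustment over all 27022 tested probe sets. Residual degrees of freedom were 4, with 3.06 added by the prior. A gene is represented by its brightest probe set. The code was tested on simulated data. The members, lists and tests were chosen with earlier results of these data known. Named were all members, then called or bright list genes, defining markers and the 10 genes most alike; the other list genes given were chosen after their values were seen. Deviations from the group mean correlated at 0.31, -0.23 and -0.05 between arrays of equal replicate number. With 3 arrays per group these values cannot decide whether such arrays were paired, and the main fit used no pairing. Alternatives were other normalizations, filters, variance models, array weights, a replicate block, other gene summaries and leaving out each array. The number of arrays limits the precision.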

Additional observations from a re-analysis of the deposited data

How the results depend on the processing

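The count of member probe sets called by limma was 0 in the analysis as reported (3 at an unadjusted p under 0.05) and 0 under each alternative run, over 134 combinations of member gene and alternative, with adjusted p of 0.14 to 0.998. The mean difference of the 8 genes ranged from 0.14 (without AKR_F1 replicate 3) to 0.44 (without AKR_F1 replicate 2). With AKR_F1 replicate 2 as the only AKR_F1 array it was 0.12, an alternative chosen after seeing the data, in which the lone array is assumed to vary like the DBA_F1 arrays. Over all probe sets 707 were called. With 1 array left out this ran from 198 (without AKR_F1 replicate 1) to 1171 (without AKR_F1 replicate 3), with 199 without AKR_F1 replicate 2 and 249 without DBA_F1 replicate 2. It was 1198 with array weights and 225 for AKR_F1 replicate 2 alone. Of the other receptor pathway genes 2 were called, Fyn and Grb2. Leaving out 1 array gave 1 to 3, and the replicate block gave 1, Fyn. AKR_F1 replicate 2 alone gave 0. In the replicate block fit 539 probe sets and 0 member probe sets were called. With the 60% filter Cd247 and Cd5 were not tested. Without detection calls, the dim Cd247 and Rag1 values have no stated background.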
